A study of Homo sapiens with 6 samples.

Results

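The genes described here are 33 genes of the endoplasmic reticulum (ER) unfolded protein response: its stress sensors and transcription factors, the chaperones and folding enzymes of the ER lumen, and genes of ER-associated degradation, translocation and export. They were chosen by gene symbol, for their known place in this response, mostly in its ATF6 and XBP1 branches. Earlier results of these data were known when they were chosen. All 33 were found among the 28008 genes of the count table. The RNA-Seq libraries came from the line DU-145-DR/tet-MUC1shRNA, human prostate cancer cells derived from DU-145 by selection for docetaxel resistance. They carry a hairpin against MUC1 in the pLKO-tet-puro vector, which doxycycline (DOX) switches on. MUC1 encodes a transmembrane mucin that the study examined as a driver of drug resistance. The DOX-negative group was 3 cultures given the DMSO vehicle, and the DOX-positive group was 3 cultures given 500 ng/ml DOX, both for 7 days. Both groups are 1 selected, drug-resistant line, and only the DOX-positive samples are labelled with the hairpin as their treatment. DOX-treated cells with a control hairpin were not analysed here, so MUC1 silencing and exposure to DOX itself cannot be told apart. P-values measure the spread between these triplicate cultures.

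The unfolded protein response adjusts the folding capacity of the ER to its load of new secretory and membrane proteins. The chaperone BiP (HSPA5) holds 3 sensors of the ER membrane in check: IRE1α (ERN1), which splices the XBP1 mRNA into the form that encodes the active transcription factor, ATF6, which is cut in the Golgi to release a transcription factor, and PERK (EIF2AK3), which phosphorylates eIF2α and lowers translation. Spliced XBP1 and cleaved ATF6 raise transcription of chaperones, disulfide isomerases and degradation genes through short promoter elements, and cancer cells that secrete or fold much protein often rely on these branches.

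The deposited counts totalled between 15092691 and 23243713 per library, and a count of 3 corresponded to between 0.129 and 0.199 CPM, the count scaled to the library total. MUC1 was at 21.3, 24.8 and 19.7 CPM in DOX-negative replicates 1 to 3 and at 3.27, 3.87 and 4.44 CPM in the DOX-positive replicates, a log2 fold change of -2.52 (SE 0.146, adjusted p = 4.47e-11). The 5 epithelial markers KRT8, KRT18, KRT19, EPCAM and CDH1 were detected in all libraries and were higher in DOX-positive cells, by between 0.81 and 1.43 on the log2 scale. The prostate luminal markers KLK3 and FOLH1 were at 0 counts in every library. Of markers of other cell types, CD3E was at 0 counts, and PTPRC, COL1A2, PECAM1 and CDH5 averaged under 0.3 CPM in both groups. CD68, which epithelial lines also express, was higher in DOX-positive cells by 0.75 (log2). The part of this epithelial shift in the results below was not tested.

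In DOX-positive cells, 11 of the 33 genes rose and 0 fell (adjusted p under 0.05). The stress sensors ERN1 and ATF6, the eIF2α phosphatase regulator PPP1R15A and the chaperone BiP (HSPA5) rose with the smallest p-values, by between 1.21-fold and 1.45-fold. The others that rose were SDF2L1, HERPUD1, DERL2, OS9, DNAJC3, XBP1 and CALR. PERK (EIF2AK3), the disulfide isomerases and the translocation genes did not pass the test. The test was edgeR's quasi-likelihood test, adjusted over all 14292 genes tested, with a threshold of 0.05, and all 33 genes passed the filter on low counts. Among all genes tested, 26.7% were called, 13.0% higher and 13.7% lower. For the 33 genes the share called was 33.3%, all of it in 1 direction.

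The log2 fold changes of the 33 genes ran from -0.54 to 0.53, with a median of 0.10, beside a median of -0.003 over all genes tested. The sign was positive for 24 genes and negative for 9. For 14 of the 33 genes the CPM ranges of the groups stayed apart, 11 of them higher and 3 lower in DOX-positive cells, and this held for 39.8% of all genes tested, so this share was near the background. Summed, the 33 genes took 0.671% ± 0.0194 (SD, n = 3) of the counts in DOX-negative cells and 0.682% ± 0.00734 (SD, n = 3) in DOX-positive cells, which differed by less than the spread of the DOX-negative libraries. The number of genes called fell to 5 without DOX-negative replicate 1, to 6 without DOX-negative replicate 3, and to 4 without either DOX-positive replicate 1 or DOX-positive replicate 3. It was 5 when libraries were scaled by total counts, where SDF2L1, DNAJC3, CALR, XBP1, DERL2 and OS9 were lost, and 5 with limma on rescaled TPM, where HERPUD1 was lost in place of SDF2L1, along with the other 5. ERN1, ATF6, PPP1R15A and HSPA5 passed in each of these fits. On the deposited TPM, where the median of all genes shifted to -0.35 (log2) and 6.78% of the calls were higher, against 48.8% in the count fit, 0 of the 33 genes were called. There the 11 genes had log2 fold changes between -0.21 (CALR) and 0.11 (ERN1), all above that median, and the sign was negative for HSPA5, DNAJC3, CALR, XBP1, HERPUD1, DERL2 and OS9.

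**Figure D1:**
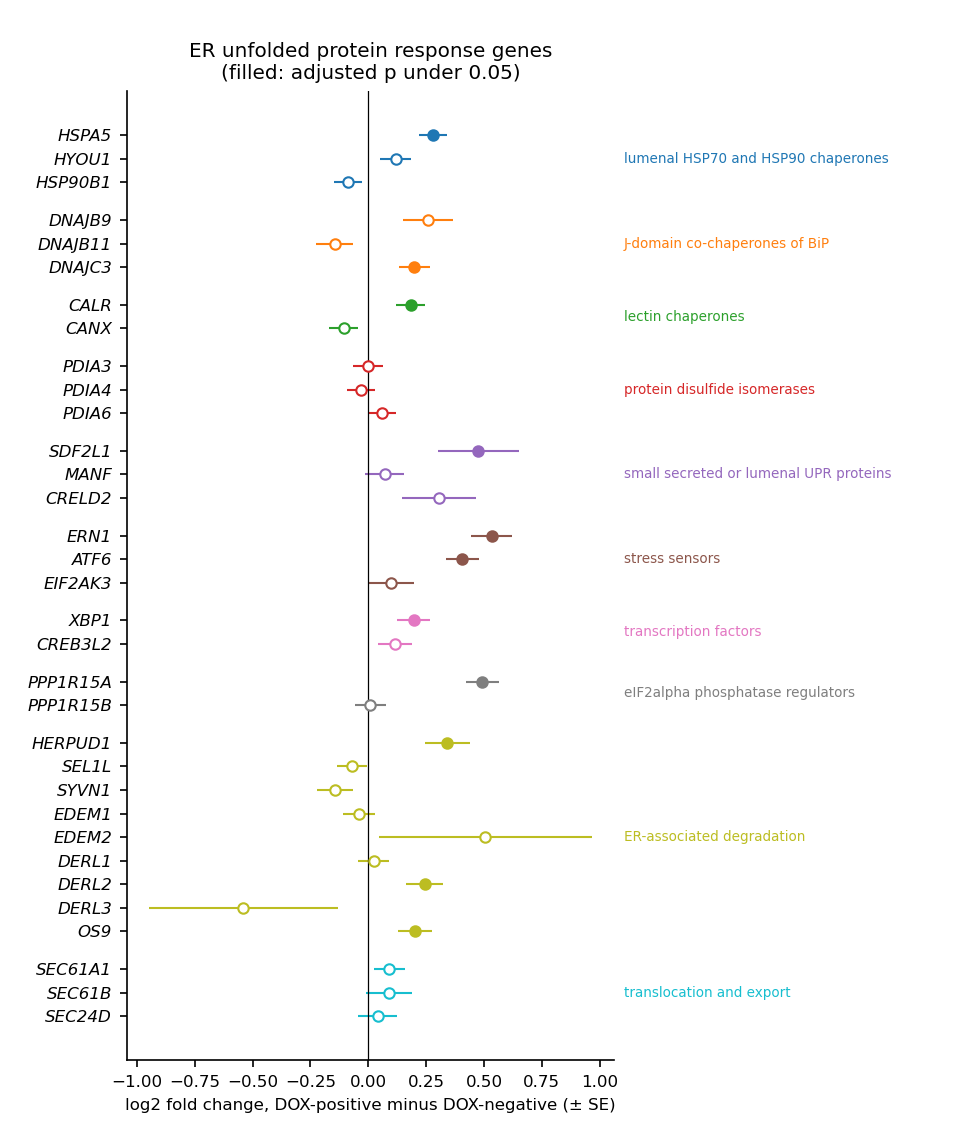
Log2 fold change (x axis, DOX-positive minus DOX-negative, ± SE) of the 33 genes, grouped by role along the y axis, with filled points for an adjusted p under 0.05. The 11 filled points all lie to the right of 0, from 0.18 for CALR to 0.53 for ERN1, and the widest error bars belong to EDEM2 and DERL3.

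Of the 3 stress sensors, 2 rose. ERN1 (chr17:64039142-64130819, minus strand, GRCh38), which encodes the kinase and endoribonuclease IRE1α, was at 33.2, 36.0 and 30.4 CPM in DOX-negative cells and at 45.0, 52.3 and 46.7 CPM in DOX-positive cells. The lowest DOX-positive library lay above the highest DOX-negative one. The log2 fold change of ERN1 was 0.53 (SE 0.0896, adjusted p = 0.000125), or 1.45-fold.

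ATF6 (chr1:161766294-161964070, plus strand) encodes the membrane-bound precursor of the ATF6 transcription factor. Its level was 96.3, 94.7 and 92.9 CPM in DOX-negative cells and 117, 137 and 122 CPM in DOX-positive cells. The DOX-negative libraries lay close together, and every DOX-positive library was above them, with replicate 2 the highest as it was for ERN1. ATF6 rose by 0.41 on the log2 scale (SE 0.0708, adjusted p = 0.000179), or 1.33-fold.

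EIF2AK3 (chr2:88556741-88627576, minus strand), which encodes PERK, was at 24.3, 25.6 and 22.5 CPM without DOX and at 26.4, 23.8 and 27.5 CPM with it. The groups overlapped, since DOX-positive replicate 2 was below 2 of the DOX-negative libraries. The log2 fold change was 0.10 (SE 0.0976, adjusted p = 0.49), which did not pass the test.

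Among the transcription factors, XBP1 (chr22:28794555-28800597, minus strand) was at 70.0, 73.4 and 66.0 CPM in DOX-negative cells and at 80.2, 78.8 and 81.0 CPM in DOX-positive cells. The 3 DOX-positive libraries lay within a narrow band above the other group. XBP1 rose by 0.20 (log2, SE 0.0715, adjusted p = 0.045), a call that was lost without DOX-negative replicate 1 (adjusted p = 0.12), DOX-negative replicate 3 (0.163), DOX-positive replicate 1 (0.106) or DOX-positive replicate 3 (0.126). Gene-level counts add up the unspliced and the IRE1α-spliced XBP1 mRNA, so splicing was not measured. CREB3L2, an ER-tethered factor of the ATF6 type, had a log2 fold change of 0.12 (adjusted p = 0.254), with DOX-positive replicate 2 at 132 CPM and the other 5 libraries between 108 and 113 CPM.

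Of the regulators of eIF2α phosphatase, 1 of 2 rose. PPP1R15A (GADD34; chr19:48872392-48876057, plus strand), the stress-induced subunit that directs the phosphatase to eIF2α, was at 75.9, 83.0 and 80.3 CPM in DOX-negative cells and at 120, 105 and 112 CPM in DOX-positive cells. No DOX-positive library came near the DOX-negative range. PPP1R15A rose by 0.49 (log2, SE 0.0717, adjusted p = 2.24e-05), or 1.41-fold, the smallest p-value of the 33 genes. PPP1R15B, the constitutive subunit, had a log2 fold change of 0.01 (SE 0.0666, adjusted p = 0.936), with overlapping groups.

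**Figure D2:**
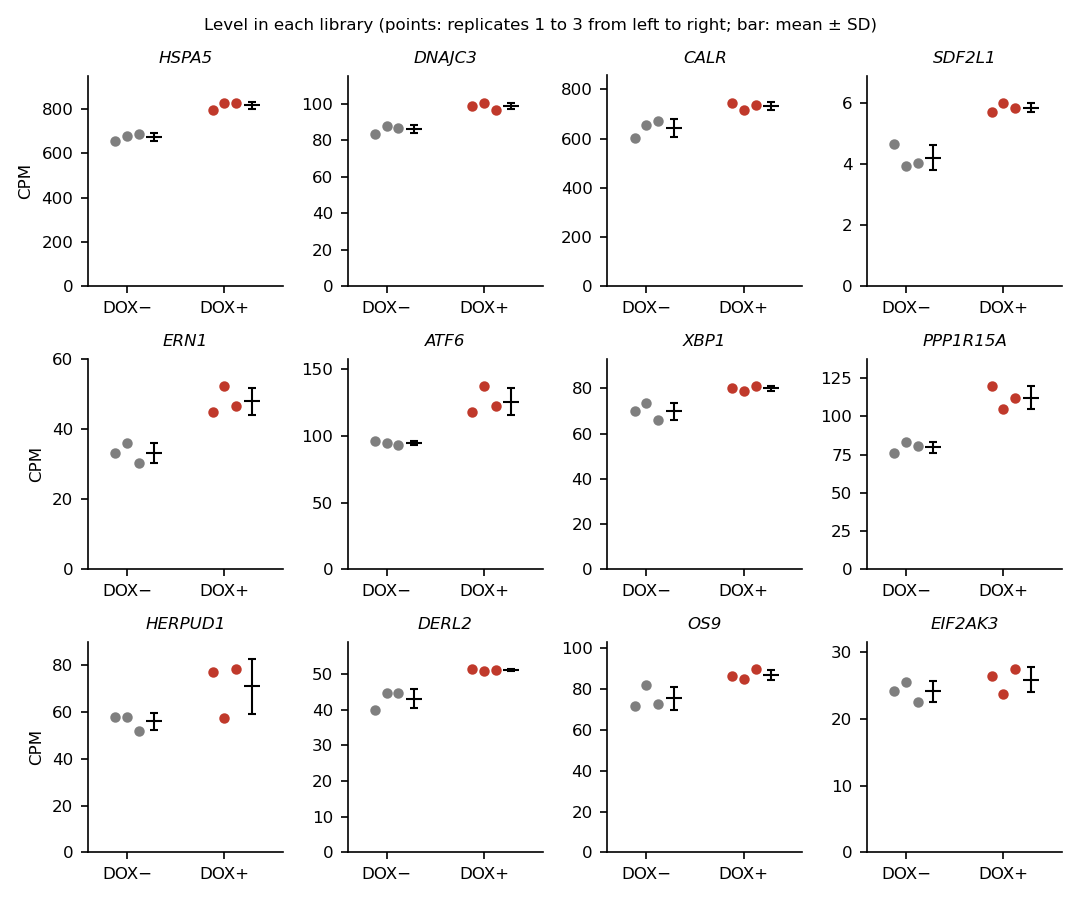
CPM (y axes, each starting at 0) of the 11 genes that rose and of EIF2AK3 in the 3 DOX-negative (grey) and 3 DOX-positive (red) libraries, with the mean ± SD as a black bar. The groups do not overlap for 10 of the 11 genes, which were picked by their p-values in this same comparison. Among all genes tested, the groups stay apart for 39.8%. For HERPUD1, DOX-positive replicate 2 lies inside the DOX-negative range, as it does for EIF2AK3.

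HSPA5 encodes BiP, the HSP70 chaperone of the ER lumen and the most used marker of this response. It lies at chr9:125234853-125241330 on the minus strand. Its promoter is shown because HSPA5 is the standard target of the ATF6 and XBP1 branches. It is the RefSeq entry of GRCh38.p14, chr9:125241294-125241593, given 5′ to 3′ along the gene. The capitals mark the 1 exact match to the ER stress response element described further on, and inexact copies were not searched for.
HSPA5 promoter: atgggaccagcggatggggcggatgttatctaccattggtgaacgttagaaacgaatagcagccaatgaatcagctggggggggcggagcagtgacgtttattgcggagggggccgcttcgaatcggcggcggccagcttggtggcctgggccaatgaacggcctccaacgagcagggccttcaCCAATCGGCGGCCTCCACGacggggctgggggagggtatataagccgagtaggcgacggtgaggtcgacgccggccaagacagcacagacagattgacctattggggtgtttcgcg

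HSPA5 was at 654, 678 and 687 CPM in DOX-negative cells and at 798, 828 and 827 CPM in DOX-positive cells. The spread within each group was small beside the gap between them. HSPA5 rose by 0.28 (log2, SE 0.0598, adjusted p = 0.00127), or 1.21-fold. The HSP70-like chaperone HYOU1, which acts as an exchange factor for BiP, had a log2 fold change of 0.12 (adjusted p = 0.207) and passed the test in 1 of the 14 alternatives run, without DOX-negative replicate 2, its highest DOX-negative library (log2 fold change 0.19, adjusted p = 0.0444). HSP90B1 (GRP94), the HSP90 of the ER, was between 617.5 and 661 CPM without DOX and between 577 and 610 CPM with it. Its groups did not overlap, but its log2 fold change of -0.09 did not pass the test (adjusted p = 0.32).

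The J-domain proteins hand clients to BiP and stimulate its ATPase. DNAJC3 (p58IPK), which also inhibits eIF2α kinases, was at 83.6, 87.7 and 86.7 CPM in DOX-negative cells and at 98.7, 100.3 and 96.8 CPM in DOX-positive cells, with no overlap. DNAJC3 rose by 0.20 (log2, SE 0.0669, adjusted p = 0.0322). That call held without DOX-negative replicate 2, and was lost without DOX-negative replicate 1 (adjusted p = 0.139), DOX-negative replicate 3 (0.0603), DOX-positive replicate 1 (0.0823), DOX-positive replicate 2 (0.0601) or DOX-positive replicate 3 (0.0667). DNAJB9 (ERdj4), a known IRE1α-XBP1 target, had a log2 fold change of 0.26 (SE 0.107, adjusted p = 0.0799), with groups that did not overlap at 16 to 24 CPM. DNAJB11 (ERdj3) had a log2 fold change of -0.15 (adjusted p = 0.179).

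Calreticulin (CALR) and calnexin (CANX) are the lectin chaperones that bind glycoproteins during folding. CALR was at 604, 657 and 673 CPM in DOX-negative cells and at 744, 715 and 737 CPM in DOX-positive cells. All 3 DOX-positive libraries were above the DOX-negative ones, whose spread was set by the low replicate 1. CALR rose by 0.18 (log2, SE 0.0623, adjusted p = 0.0324), and its call was lost without DOX-negative replicate 1 (adjusted p = 0.199), DOX-positive replicate 1 (0.108) or DOX-positive replicate 3 (0.0964). CANX, the membrane-bound lectin, was between 1312 and 1373 CPM without DOX and between 1217 and 1302 CPM with it, without overlap, and its log2 fold change of -0.11 did not pass the test (adjusted p = 0.214).

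The disulfide isomerases, which form and rearrange disulfide bonds, showed no call. PDIA3, which works with the lectin chaperones, had a log2 fold change of -0.002 (adjusted p = 0.984), PDIA4 of -0.03 (0.757) and PDIA6, which also acts on IRE1α, of 0.06 (0.501). Their SEs were between 0.0592 and 0.0649, and the groups overlapped for all 3 genes. PDIA3 has 2 annotated pseudogenes that could share reads with it, and XBP1 has 1.

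SDF2L1, a small partner of BiP co-chaperones, was low, with between 77 and 131 counts in a library. It was at 4.68, 3.94 and 4.03 CPM in DOX-negative cells and at 5.71, 6.01 and 5.85 CPM in DOX-positive cells. The groups did not overlap, and SDF2L1 rose by 0.475 (log2, SE 0.175, adjusted p = 0.0488), just inside the threshold. Leaving out any of the 6 libraries moved the adjusted p past it: 0.0604, 0.128 and 0.113 without DOX-negative replicates 1, 2 and 3, and 0.0929, 0.087 and 0.101 without DOX-positive replicates 1, 2 and 3. The call was also lost with DESeq2 (adjusted p = 0.09), without a filter on low counts (0.0578) and with total counts (0.0709). The secreted stress protein MANF and the disulfide isomerase-like CRELD2, both known targets of the response, had log2 fold changes of 0.07 (adjusted p = 0.591) and 0.31 (SE 0.16, adjusted p = 0.167).

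ER-associated degradation takes misfolded proteins out of the ER to the proteasome. Of its 9 genes, 3 rose and 6 did not pass the test. HERPUD1, a scaffold of the HRD1 ubiquitin ligase complex, was at 58.0, 58.0 and 51.9 CPM in DOX-negative cells and at 77.2, 57.2 and 78.4 CPM in DOX-positive cells. DOX-positive replicates 1 and 3 were well above the DOX-negative range, and replicate 2 lay within it. HERPUD1 rose by 0.34 (log2, SE 0.0976, adjusted p = 0.0121), and its call was lost without DOX-negative replicate 3 (adjusted p = 0.061), DOX-positive replicate 1 (0.0724) or DOX-positive replicate 3 (0.0765).

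DERL2 (Derlin-2), a membrane component of the exit route, was at 39.9, 44.6 and 44.8 CPM in DOX-negative cells and at 51.4, 50.7 and 51.0 CPM in DOX-positive cells. The DOX-positive libraries were nearly alike and all higher. DERL2 rose by 0.24 (log2, SE 0.0797, adjusted p = 0.0271), a call lost without DOX-negative replicate 1 (adjusted p = 0.159), DOX-positive replicate 1 (0.0736) or DOX-positive replicate 3 (0.0696). OS9, a lectin that brings glycoproteins to the ligase complex, was at 72.0, 82.2 and 72.7 CPM without DOX and at 86.3, 84.9 and 89.9 CPM with it. DOX-negative replicate 2 came closest to the DOX-positive range without reaching it. OS9 rose by 0.20 (log2, SE 0.0734, adjusted p = 0.0452), a call lost without DOX-negative replicate 1 (adjusted p = 0.194), DOX-negative replicate 3 (0.14), DOX-positive replicate 1 (0.0896) or DOX-positive replicate 3 (0.152).

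The core genes of the HRD1 complex did not pass the test. SYVN1, which encodes the ligase HRD1, was between 57.2 and 62.4 CPM without DOX and between 51.4 and 57.0 CPM with it, with a log2 fold change of -0.14 (adjusted p = 0.181). SYVN1 shares exon sequence on the same strand with FAU, so its counts are uncertain. SEL1L, the partner of HRD1, had a log2 fold change of -0.07 (adjusted p = 0.468), EDEM1, which trims mannose from glycoproteins, of -0.04 (0.715), and Derlin-1 (DERL1) of 0.02 (0.845). EDEM2, with 7 to 22 counts a library, and DERL3, with 15 to 41, were low, and no difference was detectable at this depth, at log2 fold changes of 0.51 (SE 0.461, adjusted p = 0.458) and -0.54 (SE 0.408, adjusted p = 0.357).

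SEC61A1 and SEC61B, subunits of the channel through which new proteins enter the ER, and SEC24D, a cargo-binding subunit of the COPII coat that carries proteins out of it, had log2 fold changes of 0.09 (adjusted p = 0.344), 0.09 (0.557) and 0.04 (0.774). None passed the test, and their groups overlapped.

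Levels between genes were compared per transcript length, in TPM (a level divided by transcript length and scaled to a common library total), rescaled without 5 short noncoding RNAs. By the mean TPM over the 6 libraries the order was led by CALR at 1079, CANX at 712, HSP90B1 at 611 and HSPA5 at 516. In TPM, HSPA5 was at 470 ± 11.9 in DOX-negative and 561 ± 19.2 in DOX-positive cells (SD, n = 3), and HSP90B1 at 634 ± 11.5 and 588 ± 26.4, so the gap between these chaperones narrowed to about the spread of the DOX-positive libraries. PDIA6, SEC61B and PDIA3 were next in order at mean TPM values of 356, 351 and 333. PDIA6 was at 352 ± 14.2 TPM in DOX-negative and 360 ± 4.24 TPM in DOX-positive cells, and PDIA3 at 336 ± 19.7 and 330 ± 25.1. PDIA6 was above PDIA3 in every library. SEC61B, at 343 ± 41.7 and 359 ± 43.3, did not differ from either beyond its spread. The sensors stood far below CALR, CANX, HSP90B1 and HSPA5, but ATF6 was above the co-chaperone DNAJB9, which had a mean TPM of 23.2. ATF6 was at 33.5 ± 1.33 and 43.7 ± 4.04 TPM, ERN1 at 11.2 ± 1.22 and 16.0 ± 1.44 TPM, and EIF2AK3 at 13.7 ± 1.21 and 14.4 ± 1.03 TPM, in DOX-negative and DOX-positive cells respectively. In DOX-positive cells ERN1 was above EIF2AK3 in each library, though narrowly in replicate 1 (14.72 against 14.45 TPM) and replicate 3 (15.64 against 15.41 TPM). EDEM2 and DERL3 closed the order at mean TPM values of 0.953 and 0.434.

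**Figure D3:**
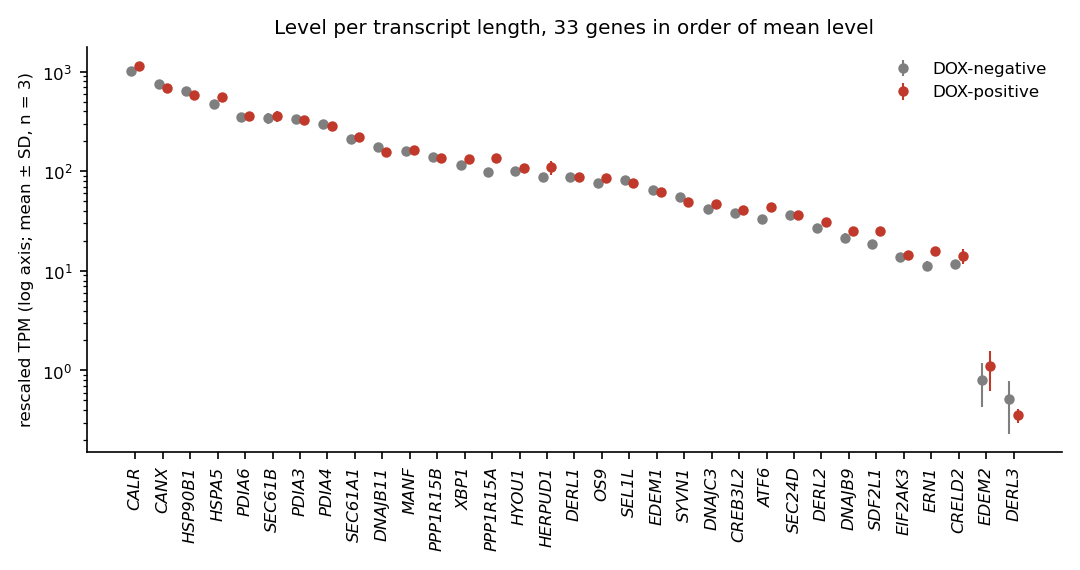
Rescaled TPM of the 33 genes (y axis, log scale; mean ± SD, n = 3) in DOX-negative (grey) and DOX-positive (red) cells, ordered by mean level along the x axis. Group means run from 1139 for CALR to 0.355 for DERL3, both in DOX-positive cells, and the shift between the groups is small beside the range between genes.

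The chaperone genes are known to carry the ER stress response element, ERSE, in their promoters, and some carry the related ERSE-II. Promoter windows of 300 bases (250 before to 50 after the annotated start, RefSeq, GRCh38.p14) were searched on both strands for ERSE, which is CCAAT, any 9 bases and CCACG, and for ERSE-II, which is ATTGG, any 1 base and CCACG. Of the 33 genes, 29 had an entry. ERSE was found in 7 of them (CALR, CANX, CRELD2, HSP90B1, HSPA5, PDIA6 and XBP1) and ERSE-II in 3 others (HERPUD1, HYOU1 and SDF2L1), together 34.5% of the 29. Of all 35116 promoter entries, 0.0769% held ERSE and 0.0541% held ERSE-II, and 0.209% of the entries of genes tested held either. The elements were first described in promoters of genes such as these, so this share is a description of the list and not a result of the comparison. The windows around the matches show where the CCAAT and CCACG parts of each element sit. Each is given along its gene from 5′ to 3′ with 8 flanking bases on either side and the element in capitals, which reads CGTGG first where it lies on the opposite strand.
CALR (chr19:12938376-12938410, plus strand): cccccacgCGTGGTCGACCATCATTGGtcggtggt
XBP1 (chr22:28800595-28800629, minus strand): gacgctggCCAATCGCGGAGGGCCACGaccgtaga
PDIA6 (chr2:10812845-10812879, minus strand): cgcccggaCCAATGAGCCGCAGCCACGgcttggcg
CANX (chr5:179698770-179698804, plus strand): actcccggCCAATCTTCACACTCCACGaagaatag
CRELD2 (chr22:49918546-49918580, plus strand): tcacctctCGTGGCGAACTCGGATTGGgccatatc
HSP90B1, first match (chr12:103930208-103930242, plus strand): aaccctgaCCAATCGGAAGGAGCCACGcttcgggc
HSP90B1, second match (chr12:103930313-103930347, plus strand): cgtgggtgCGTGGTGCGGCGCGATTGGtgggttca
HERPUD1, ERSE-II (chr16:56932017-56932043, plus strand): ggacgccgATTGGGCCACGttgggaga
SDF2L1, ERSE-II (chr22:21642106-21642132, plus strand): ctcggaagCGTGGACCAATcaaaaccc
HYOU1, ERSE-II, first match (chr11:119057372-119057398, minus strand): ccccgtgaCGTGGTCCAATcccaggcc
HYOU1, ERSE-II, second match (chr11:119057266-119057292, minus strand): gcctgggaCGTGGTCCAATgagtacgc

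Genes with either element were not all among those that rose. Of the 10 genes with a match, 5 rose (SDF2L1, HERPUD1, HSPA5, XBP1 and CALR) and 5 did not pass the test. Of the genes with an entry and no match, 6 rose (ERN1, PPP1R15A, ATF6, DERL2, OS9 and DNAJC3) and 13 did not pass. The median log2 fold change was 0.19 with a match and 0.10 without. HSP90B1 and CANX, both with an ERSE, had negative log2 fold changes, while ERN1, PPP1R15A and ATF6, which rose by more than 0.4 (log2), had neither sequence in this window. The core of a further element, UPRE, which is TGACG followed directly by TGG, was found in HYOU1 alone among the 29, and in 0.729% of all entries. A match is not a measurement of binding, and no match says only that these letters are not in this window.

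**Figure D4:**
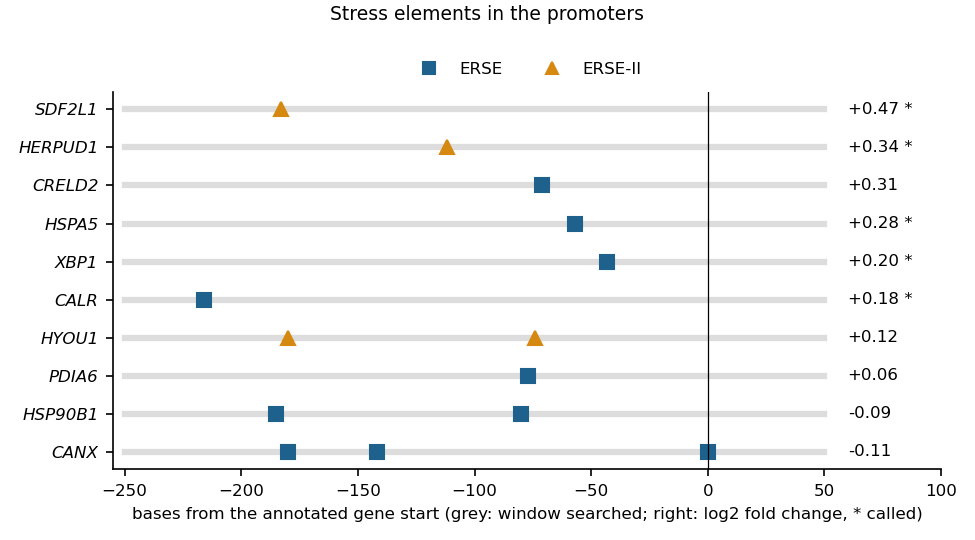
Centres of ERSE (squares) and ERSE-II (triangles) matches, in bases from the annotated gene start (x axis), for the 10 genes with a match, ordered by log2 fold change, which is printed at the right with an asterisk for those that rose. The single CANX site is drawn 3 times because CANX has 3 annotated starts, and genes with a match range from 0.475 for SDF2L1 to -0.11 for CANX.

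Beyond the 33 genes, 144 other genes of the same machinery were listed by role, of which 142 were tested. Of these, 25 rose and 24 fell, 34.5% called, with a median log2 fold change of 0.02. Among all genes tested, 26.7% were called, 13.0% higher and 13.7% lower. By list, the share called ran from 18.8% for the translocon, signal peptidase and N-glycosylation genes to 50% for the sensor partners and ER-tethered factors. The genes around the sensors went both ways. Of 18 partners of the sensors and ER-tethered factors, 3 rose (MAP3K5, TMBIM6 and NFYC, named after their values were seen) and 6 fell. MBTPS1 (site-1 protease), the first of the Golgi proteases that cut ATF6, was at 189, 179 and 184 CPM without DOX and at 113, 113 and 117 CPM with it. Every DOX-positive library was far below every DOX-negative one, and MBTPS1 fell by 0.69 on the log2 scale (SE 0.0627, adjusted p = 3.94e-08). MBTPS2 (site-2 protease), which makes the second cut, was at 45.9, 47.9 and 49.8 CPM without DOX and at 34.7, 41.6 and 39.3 CPM with it, again without overlap. MBTPS2 fell by 0.32 (log2, SE 0.0858, adjusted p = 0.00876), with a call that was lost without DOX-positive replicate 1 (adjusted p = 0.0716). ATF6 mRNA was thus higher and the mRNAs of both its proteases lower in the same libraries. NF-Y, the factor that binds the CCAAT part of ERSE, had subunits that went different ways. NFYA fell by 0.44 (log2, adjusted p = 0.000188) and NFYC rose by 0.24 (log2, adjusted p = 0.0281). NFYB, named after its values were seen, had a log2 fold change of -0.13 (adjusted p = 0.303). The ER-tethered factor CREB3L1, at 4 to 30 counts a library, fell by 1.79 (log2, SE 0.464, adjusted p = 0.0061). ATF6B, the paralog of ATF6, had a log2 fold change of 0.17 (adjusted p = 0.138).

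Of 18 genes of the PERK branch and the other eIF2α kinases, 7 rose, 10 did not pass the test and PPP1CC fell. Among the 7 was EIF2AK4 (GCN2), a kinase that phosphorylates eIF2α on amino acid shortage, by 0.34 (log2, adjusted p = 0.000213). PPP1CC and EIF2AK4 were named after their values were seen. SESN2, a stress-induced regulator of mTORC1, was at 28.4, 33.8 and 26.8 CPM without DOX and at 78.1, 70.3 and 72.1 CPM with it. It rose 2.48-fold, by 1.31 on the log2 scale (SE 0.0898, adjusted p = 5.78e-10). ATF3, a stress-induced transcription factor, rose by 0.93 (log2, SE 0.122, adjusted p = 6.95e-06). TRIB3, a pseudokinase induced by ATF4 and CHOP, rose by 0.79 (log2, SE 0.0775, adjusted p = 1.05e-07). DDIT3 (CHOP), which itself induces PPP1R15A, rose by 0.48 (log2, SE 0.117, adjusted p = 0.00409). The mRNA of ATF4, the factor upstream of these genes, which is controlled mostly by translation, had a log2 fold change of 0.14 (adjusted p = 0.101). Also among the 10 that did not pass were CHAC1 (log2 fold change 0.04, adjusted p = 0.874) and NUPR1 (-0.01, 0.984). ATF5 (-0.19, 0.244) and CEBPB (0.10, 0.423) did not pass either. CHAC1, NUPR1, ATF5 and CEBPB were named after their values were seen.

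Of 25 genes of oxidative folding and chaperoning, 3 rose and 5 fell. ERO1A, the oxidase that recharges the disulfide isomerases, rose by 0.38 (log2, adjusted p = 0.000232), while the collagen chaperone SERPINH1 fell by 0.47 (adjusted p = 0.00151) and the membrane thioredoxin-like TMX4 by 0.37 (adjusted p = 0.00266). Of 27 further ER-associated degradation genes, 7 rose and 2 fell. The falls were RNF5, a ubiquitin ligase of the ER membrane, by 0.93 (log2, adjusted p = 5.5e-07), and NPLOC4, a cofactor of the VCP segregase, by 0.86 (log2, adjusted p = 3.01e-08). SELENOK, a selenoprotein that binds the Derlins, rose by 0.51 (log2, adjusted p = 0.00905), a call lost without DOX-positive replicate 1 (adjusted p = 0.0508).

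Of 32 genes of the translocon, signal peptidase and N-glycosylation, 2 rose (SRPRA and, named after its values were seen, SRPRB) and 4 fell. SRP9, a subunit of the signal recognition particle, fell by 1.10 (log2, SE 0.063, adjusted p = 3.82e-11), from between 226 and 239 CPM to between 106 and 111 CPM. SSR1, a subunit of the translocon-associated complex, fell by 0.34 (adjusted p = 0.000194), and SRPRA, a subunit of the receptor for the signal recognition particle, rose by 0.34 (adjusted p = 0.0017). Of 22 genes of the COPII coat and its cargo receptors, 3 rose and 6 fell. SAR1B, the GTPase that starts the coat, rose by 0.31 (log2, adjusted p = 0.00309), and SEC24A, a cargo-binding subunit, fell by 0.41 (log2, adjusted p = 0.000197). The KDEL receptors, which return BiP, calreticulin and other lumenal proteins to the ER, all fell: KDELR3 by 0.37 (log2, adjusted p = 0.00145), KDELR2 by 0.27 (adjusted p = 0.00424) and KDELR1 by 0.24 (adjusted p = 0.0209), the latter pair named after their values were seen. The KDELR1 groups overlapped, and its call was lost without DOX-negative replicate 1 (adjusted p = 0.103), DOX-negative replicate 3 (0.116), DOX-positive replicate 1 (0.057) or DOX-positive replicate 3 (0.108).

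**Figure D5:**
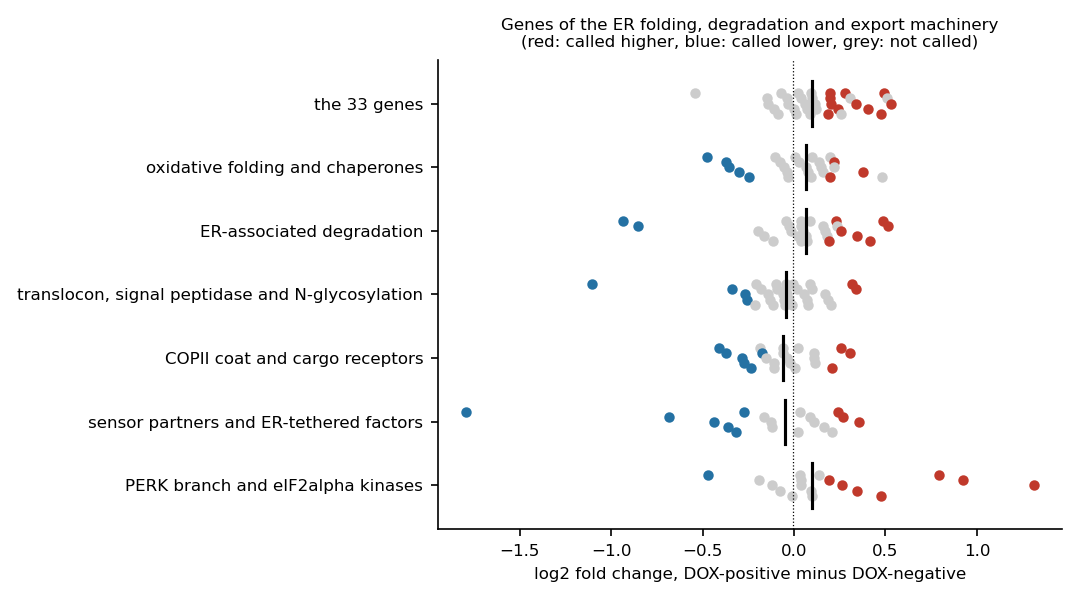
Log2 fold change (x axis, DOX-positive minus DOX-negative) of the 33 genes and of the 6 lists of other ER genes (y axis), with genes that rose in red, genes that fell in blue, others in grey, a black bar at each list's median and a dotted line at the median of all genes tested. The 33 genes hold 11 red and 0 blue points, whereas the 6 other lists together hold 25 red and 24 blue points.

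The heptamer ATCAGTA was taken from an earlier scan of 3′UTRs in these same data, in which genes that hold it were lower in DOX-positive cells, so what follows is no independent evidence. Of 12258 genes tested with a 3′UTR of at least 50 bases in GENCODE 29, 9.99% held it, and their median log2 fold change was -0.11 beside 0.001 for genes without it. Of the 33 genes, 1 held it (3.03%), DNAJC3, which rose. It was found in 10 of the 24 other ER genes that fell, 4 of the 25 that rose and 7 of 92 that did not pass the test. SRP9, RNF5, NPLOC4, SERPINH1, TMX4, SSR1, SEC24A and MBTPS2 hold it, whereas MBTPS1, NFYA, CREB3L1 and the KDEL receptors do not. The part of this sequence in the falls was not tested.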

How the data were processed

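Expression was compared between 3 DOX-negative and 3 DOX-positive libraries (TruSeq Stranded mRNA, triplicate cultures), grouped by their titles. The authors deposited whole-number read counts for 28008 genes and a table of TPM values. The submitters' processing notes name STAR, DESeq2 and GRCh38 (hg38). Counting settings, strand use and annotation are not given in the sources used here, so antisense and overlapping genes may share reads. In the TPM values the authors deposited, 5 short noncoding RNAs (RPPH1, RN7SK and the RN7SL genes 1 to 3) held between 34.4% and 64.4% of a library, the least in DOX-negative replicate 2, so levels are given in TPM rescaled without them.

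Counts were tested in R 4.3.3 with edgeR 4.0.16 (filterByExpr, TMM factors, glmQLFit and glmQLFTest, two-sided, group as the only term), with Benjamini-Hochberg adjustment over 14292 genes. SE was derived from the log2 fold change and its F statistic. CPM uses TMM-scaled library sizes. A count of 3 was the floor, for counting error alone. Within a group, libraries differed beyond sampling noise (chi-square per degree of freedom between 3.65 and 19). The fits were tested on simulated counts.

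The members and lists were chosen with earlier results of these data known. Named were MUC1, all 33 members, of each of the 6 other lists the 3 called genes with the largest absolute log2 fold change, and ATF4, DDIT3, MBTPS1, MBTPS2 and ATF6B; full values were given for called members and for HSPA5, XBP1, ERN1, ATF6 and EIF2AK3. The 14 alternatives were DESeq2 1.42.0, scaling by total counts or by RLE factors, a filter of 10 counts in each library or none, a replicate block, limma 3.58.1 on log2(TPM + 1) of deposited and of rescaled TPM (on this scale changes of low genes are understated), and each library left out in turn. Some marker genes are not reported here. Promoter entries were missing for PDIA3, DERL1, DERL3 and SEC24D.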

Additional observations from a re-analysis of the deposited data

How the results depend on the processing

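The fall of MUC1 held under all 14 alternatives. The numbers of all genes and of other ER genes called stayed within 1.5 times, and HSPA5, ERN1, ATF6 and PPP1R15A stayed called, under 13 of the 14, the exception being limma on the deposited TPM. There the median of all genes shifted to -0.35 (log2), 6.78% of calls were higher (48.8% in the edgeR fit, 39.3% with total counts), and 295 genes, 4 other ER genes and 0 members were called. The members called numbered 5, all higher, with total counts, with the replicate block and on rescaled TPM, and 4 to 11 when 1 library was left out. Their median log2 fold change of 0.10 became 0.065 with total counts, -0.268 on deposited TPM, and 0.085 to 0.147 with 1 library left out. The replicate block left HSPA5, ERN1, ATF6, PPP1R15A and HERPUD1 called, and under it KDELR1 lost its call (adjusted p = 0.0571). The replicate numbers did not pair the samples (correlations of -0.0189, -0.095 and -0.0273). On deposited TPM the sign reversed for HSPA5 (-0.113), HYOU1 (-0.268), DNAJB9 (-0.123), DNAJC3 (-0.189), CALR (-0.208), PDIA6 (-0.332), MANF (-0.321), CRELD2 (-0.078), EIF2AK3 (-0.258), XBP1 (-0.192), CREB3L2 (-0.268), PPP1R15B (-0.382), HERPUD1 (-0.064), DERL1 (-0.36), DERL2 (-0.14), OS9 (-0.185), SEC61A1 (-0.302), SEC61B (-0.301), SEC24D (-0.328), ERO1A (-0.016), SRPRA (-0.056), SAR1B (-0.085), ATF4 (-0.256) and ATF6B (-0.205). It also reversed for PDIA3 with DESeq2 (0.002) and RLE factors (0.001), for PPP1R15B with total counts (-0.026) and on rescaled TPM (-0.019), and for DERL1 with total counts (-0.011). With 1 library left out, log2 fold changes crossed 0 for PDIA3 (-0.049 to 0.044), PPP1R15B (-0.04 to 0.079), DERL1 (-0.008 to 0.076), DERL3 (-0.762 to 0.047) and SEC24D (-0.026 to 0.139). Over all alternatives and 57 single genes, 84 calls were lost, 10 of them with the sign reversed, and 1 was gained; the causes were not tested.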
